A study of Mus musculus with 24 samples.

Results

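Bhlhe40 (ENSMUSG00000030103) and Bhlhe41 (ENSMUSG00000030256), both on mouse chromosome 6, encode the paired transcriptional repressors also known as DEC1 and DEC2. They were taken by symbol from the deposited count table and are 2 of its 47643 genes, and both were among the 10159 genes that passed the expression filter. The pair was chosen with the difference between smoke and air in these same samples known. Their values in that comparison are therefore given as a description, without a p-value, and no support is taken from them.

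The samples were plantaris muscle, a fast hindlimb muscle, from wild type C57BL/6 mice. One group of 11 samples was exposed to normal air and the other, of 13 samples, to tobacco smoke for 16 weeks. No transgene, drug or deletion is named for either group, and neither the age of the mice nor the clock time at which muscle was taken is given in the labels used here. RNA was read from the 3′ ends of transcripts (Lexogen QuantSeq), so counts do not scale with transcript length. The series title concerns chronic activity of the aryl hydrocarbon receptor (AhR), a transcription factor that binds components of smoke, in muscle impairment.

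Bhlhe40 and Bhlhe41 proteins carry a basic helix-loop-helix domain and an Orange domain, and bind as dimers to the E-box CACGTG. The same sequence is bound by the circadian activators CLOCK and BMAL1, so both repressors act as a brake on the molecular clock and are themselves clock-driven. Bhlhe40 is also known as a gene induced by hypoxia, TGF-beta and other stimuli, and in muscle both proteins have been linked to repression of MyoD activity and of PGC-1α.

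A match to this E-box is present in the promoter of Bhlhe41, and it is shown because clock activators and the repressors themselves bind such a sequence. The promoter of Bhlhe40 was not analysed here. The promoter table used here, from RefSeq on GRCm38.p6, gives 250 bases before to 50 bases after a gene's start. The stretch below is the 112 bases at chr6:145865559-145865670, minus strand, which lie before every annotated start of Bhlhe41. It is printed 5′ to 3′ with the CACGTG in capitals, beginning 153 bases before the RefSeq start.
Bhlhe41: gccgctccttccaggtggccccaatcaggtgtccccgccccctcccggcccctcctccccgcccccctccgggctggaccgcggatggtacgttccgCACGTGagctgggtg

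On both strands, CACGTG occurred in 7.15% of 32851 such windows and in 8.09% of 27025 genes. The Bhlhe41 window held 1. It held 0 matches to the D-box TTATGTAA, bound by the clock output factors and found in 0.938% of windows. The core GCGTG of the AhR response element, found in 32.4% of windows, matched at 2 places. The core ACGTG of the hypoxia-inducible factor site, found in 19.6% of windows, also matched at 2 places, both inside the E-box, because CACGTG contains ACGTG on each strand. These are matches of letters and not measured binding.

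Of the 19 genes in the clock lists used below, 17 had a promoter window and 4 of these held CACGTG. The following windows of 30 bases show what these 4 share with Bhlhe41. They are printed 5′ to 3′ on the strand of each gene and come from the same RefSeq table. Capitals mark the E-box. They lie at chr11:69098771-69098800 on the plus strand for Per1, chr10:85185097-85185126 on the minus strand for Cry1, chr3:95882327-95882356 on the minus strand for Ciart and chr15:81802534-81802563 on the plus strand for Tef. The Ciart promoter held 3 E-boxes and that of Tef 2, of which one each is shown.
Per1: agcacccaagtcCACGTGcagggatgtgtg
Cry1: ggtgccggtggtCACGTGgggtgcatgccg
Ciart: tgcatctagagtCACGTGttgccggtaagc
Tef: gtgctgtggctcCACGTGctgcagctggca

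Total counts per sample ranged from 2515697 to 4528845, and 3 counts corresponded to 0.665 to 1.15 CPM (counts scaled to a common library total). All libraries were read on lane 6, and the sample sheet numbers of the groups did not overlap, so sheet order cannot be told apart from exposure. The libraries air 11 and smoke 10 stood apart on the first principal component (14.8% of variance), at 38.7 and 29.0 against -17.9 to 17.6 in the other 22. Of the muscle fibre markers, 9 of 9 were tested and their summed level was 144022 to 220503 CPM in air and 149260 to 188215 CPM in smoke, which fits the labelled tissue. T and NK cell markers did not exceed 4 counts in any sample.

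Bhlhe40 was higher in smoke than in air in every sample. In air it lay between 60.4 and 98.7 CPM, with a median of 88.3 CPM and a mean of 84.1 ± 12.2 CPM (SD, n = 11). In smoke it lay between 103 and 149 CPM, with a median of 112 CPM and a mean of 114 ± 12.1 CPM (SD, n = 13). The groups did not overlap: 13 of 13 smoke samples were above the highest air sample. The lowest values were those of air 11 and smoke 13, and the highest those of air 2 and smoke 1. The fitted log2 fold change was 0.44 (SE 0.072), or 1.35-fold. Counts behind these values were 192 to 376 per sample in air and 275 to 531 in smoke.

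Among all tested genes, 1 (0.00984%) had every smoke sample above every air sample, and that gene is Bhlhe40. Groups without overlap in either direction were found for 3 genes (0.0295%). Since the pair was chosen on this contrast, nothing is read from either count. Of the 10159 tested genes, 275 had a larger log2 fold change than Bhlhe40 and 471 a larger one than Bhlhe41. The spread of Bhlhe40 was low. The coefficient of variation was 14.5% in air, where 26.5% of tested genes had a smaller one, and 10.7% in smoke, where 13.8% did. Counting error alone gives 5.82% and 5.06%.

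Bhlhe41 had a similar fold change, a wider spread and groups that overlapped. In air it lay between 26.1 and 63.2 CPM, with a median of 43.4 CPM and a mean of 41.3 ± 11.5 CPM (SD, n = 11). In smoke it lay between 27.5 and 71.9 CPM, with a median of 59.9 CPM and a mean of 53.5 ± 13.1 CPM (SD, n = 13). The smoke samples covered most of the air range, with 10 of 13 above the air mean and 2 of 13 above the highest air sample. The highest values were those of air 10 and smoke 5. The lowest in each group were air 11 and smoke 10, the libraries that stood apart on the first component. The log2 fold change was 0.37 (SE 0.14), or 1.29-fold, from at least 83 counts per sample in air and 75 in smoke.

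**Figure D1:**
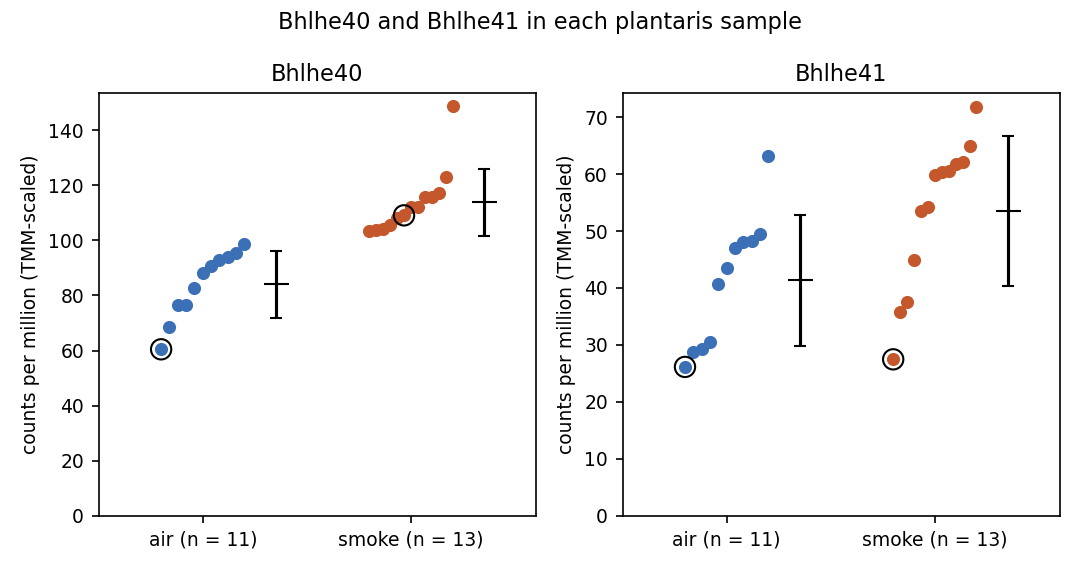
Each point is 1 plantaris sample, ordered by value within its group, on an axis of TMM-scaled CPM that starts at 0; the horizontal line and bars are the mean and SD, and circles mark air 11 and smoke 10. The Bhlhe40 groups are separated, with air ending at 98.7 and smoke beginning at 103 CPM, whereas those of Bhlhe41 overlap.

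The coefficient of variation of Bhlhe41 was 27.8% in air, where 71.6% of tested genes had a smaller one, and 24.6% in smoke, where 63.4% did. Counting error alone gives 8.23% and 7.35%, less than the spread between samples. With air 11 and smoke 10 left out, the log2 fold change was 0.40 for Bhlhe40 and 0.37 for Bhlhe41. At an adjusted p under 0.05 in edgeR's quasi-likelihood test, 1.92% of tested genes were called, 0.728% higher and 1.19% lower under smoke. Of the pair, 1 of 2 was called, Bhlhe40, and nothing is read from that count because the comparison chose the genes.

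The difference between the 2 genes in log2 CPM, Bhlhe40 minus Bhlhe41, was 1.05 ± 0.486 (SD) in air and 1.12 ± 0.438 (SD) in smoke, a change of 0.072 with an SE of 0.191. In bulk muscle, a change in the number of cells that express a gene and a change in RNA per cell cannot be told apart. Markers of other cell types moved alongside. Of 5 tested Schwann cell markers 2, Prx among them, were called higher, with a summed level of 133 to 332 CPM in air and 196 to 805 CPM in smoke. Of 5 blood markers 3 (Hba-a2, Hbb-bt and Hbb-bs) were called lower, with a summed level of 486 to 1444 CPM in air and 369 to 883 CPM in smoke. The muscle fibre list had 1 call, Mb, which was lower. No marker of macrophages, endothelium, fibroblasts, satellite cells, adipocytes or slow fibres was called, and no listed marker was at 0 in every sample. The part of these markers in the result for Bhlhe40 and Bhlhe41 was not tested.

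A gene on the opposite strand overlaps each of the pair, and whether strand was used in counting is not given in the sources used here. 0610040F04Rik, which overlaps Bhlhe40, had 17 counts over all air samples and 9 over all smoke samples, against 3250 and 5079 for Bhlhe40. Gm43909, which overlaps Bhlhe41, had 3 and 13, against 1624 and 2406 for Bhlhe41. Neither overlapping gene exceeded 5 counts in a sample, so what was counted under its own name was small beside either repressor.

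Whether samples high in Bhlhe40 were also high in Bhlhe41 was examined within each group. Within air, Pearson's r of their log2 CPM was -0.13 and Spearman's rho -0.20 (n = 11, permutation p = 0.714 and 0.559, Benjamini-Hochberg adjusted p = 0.846 and 0.803). Within smoke, r was -0.093 and rho -0.099 (n = 13, permutation p = 0.765 and 0.753, adjusted p = 0.872 and 0.909). No relation between the genes passed the threshold in either group, and the value in air rests on single libraries. Without air 11, the library that stood apart, r in air was -0.73 (permutation adjusted p = 0.343), and without air 10 it was 0.13 (adjusted p = 0.911). In smoke, r was -0.23 without smoke 10 (permutation adjusted p = 0.851) and 0.063 without smoke 1 (adjusted p = 0.907). Without the 2 samples farthest from the Bhlhe40 median, r was -0.57 in air and 0.050 in smoke. The adjustment ran over 78 relations, which comprised the pair and each gene with 19 others in each group.

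**Figure D2:**
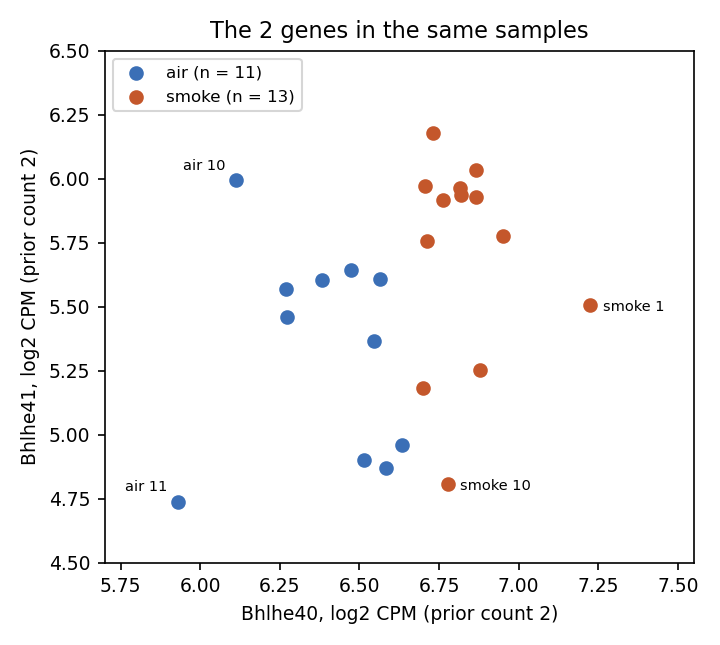
Each point is 1 sample, with log2 CPM (prior count 2) of Bhlhe40 on the horizontal axis and of Bhlhe41 on the vertical axis, air in blue and smoke in orange. Smoke points lie to the right of all air points, and within neither group do the genes rise together (r of -0.13 in air and -0.093 in smoke).

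Bhlhe40 and Bhlhe41 act beside the repressing arm of the clock, the PER and CRY proteins and the REV-ERB receptors. Of 8 genes listed there, 7 were tested, 2 were called higher and 0 lower, with a median log2 fold change of 0.15 against 0.01 over all tested genes. Per3, a period gene, rose from 44.3 ± 9.54 to 60.1 ± 12.4 CPM (log2 fold change 0.45, SE 0.11, edgeR adjusted p = 0.0172), a fold close to that of Bhlhe40. Nr1d2, which encodes REV-ERBβ, rose from a mean of 86.7 to 105 CPM, with air at 72.7 to 99.3 CPM and smoke at 70.3 to 118 CPM (log2 fold change 0.28, SE 0.069, adjusted p = 0.0216). For each of these genes, 12 of 13 smoke samples exceeded the mean of air. Per3 overlaps Camta1 on its own strand. Per1, an E-box gene shown above, had a log2 fold change of 0.58 (SE 0.30, adjusted p = 0.346) with a large spread in air. Cry2 stood at 0.10 (adjusted p = 0.664), and Cry1, another gene shown above, at -0.35 (adjusted p = 0.205). The clock time at which muscle was taken is not given in the labels used here. For the clock genes here and below, a difference in it cannot be told apart from exposure.

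The activators that these repressors oppose were not called. Of 7 listed genes 4 were tested, with 0 higher, 0 lower and a median log2 fold change of 0.00. Arntl, which encodes BMAL1, stood at -0.47 (edgeR adjusted p = 0.480) and Clock at -0.06 (adjusted p = 0.842). Rora, a retinoid-related receptor, stood at 0.07 (adjusted p = 0.705).

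The D-box factors, a clock output layer, split. Of 4 tested, 1 was called higher and 1 lower. Dbp, an activator, rose from 23.9 ± 7.69 to 54.0 ± 16.3 CPM (log2 fold change 1.18, SE 0.16, edgeR adjusted p = 4.87e-05). Nfil3, a repressor that opposes it, fell from 25.0 ± 7.46 to 10.1 ± 2.51 CPM (log2 fold change -1.31, SE 0.15, adjusted p = 1.31e-06). Both differences were larger than that of Bhlhe40. Tef and Hlf, relatives of Dbp, stood at 0.05 (adjusted p = 0.814) and -0.02 (adjusted p = 0.956), and the sign of the latter changed with the processing. Dbp overlaps Sphk2 on the opposite strand.

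The nearest relatives of the pair, the Hes and Hey repressors, were not called. Of 10 listed genes 4 passed the filter, with a median log2 fold change of -0.12. Hes1, the best known of them, stood at -0.10 (edgeR adjusted p = 0.717) and Hes6 at -0.13 (adjusted p = 0.603). Corepressors and partners of Bhlhe40 and Bhlhe41, such as histone deacetylases, the retinoid X receptors and the Id proteins, numbered 14 tested of 15. Of these 0 were called higher and 1 lower, with a median of 0.09. That list had 0 calls without air 10. Rxra stood at 0.04 (adjusted p = 0.777) and Rxrg at 0.12 (adjusted p = 0.414).

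**Figure D3:**
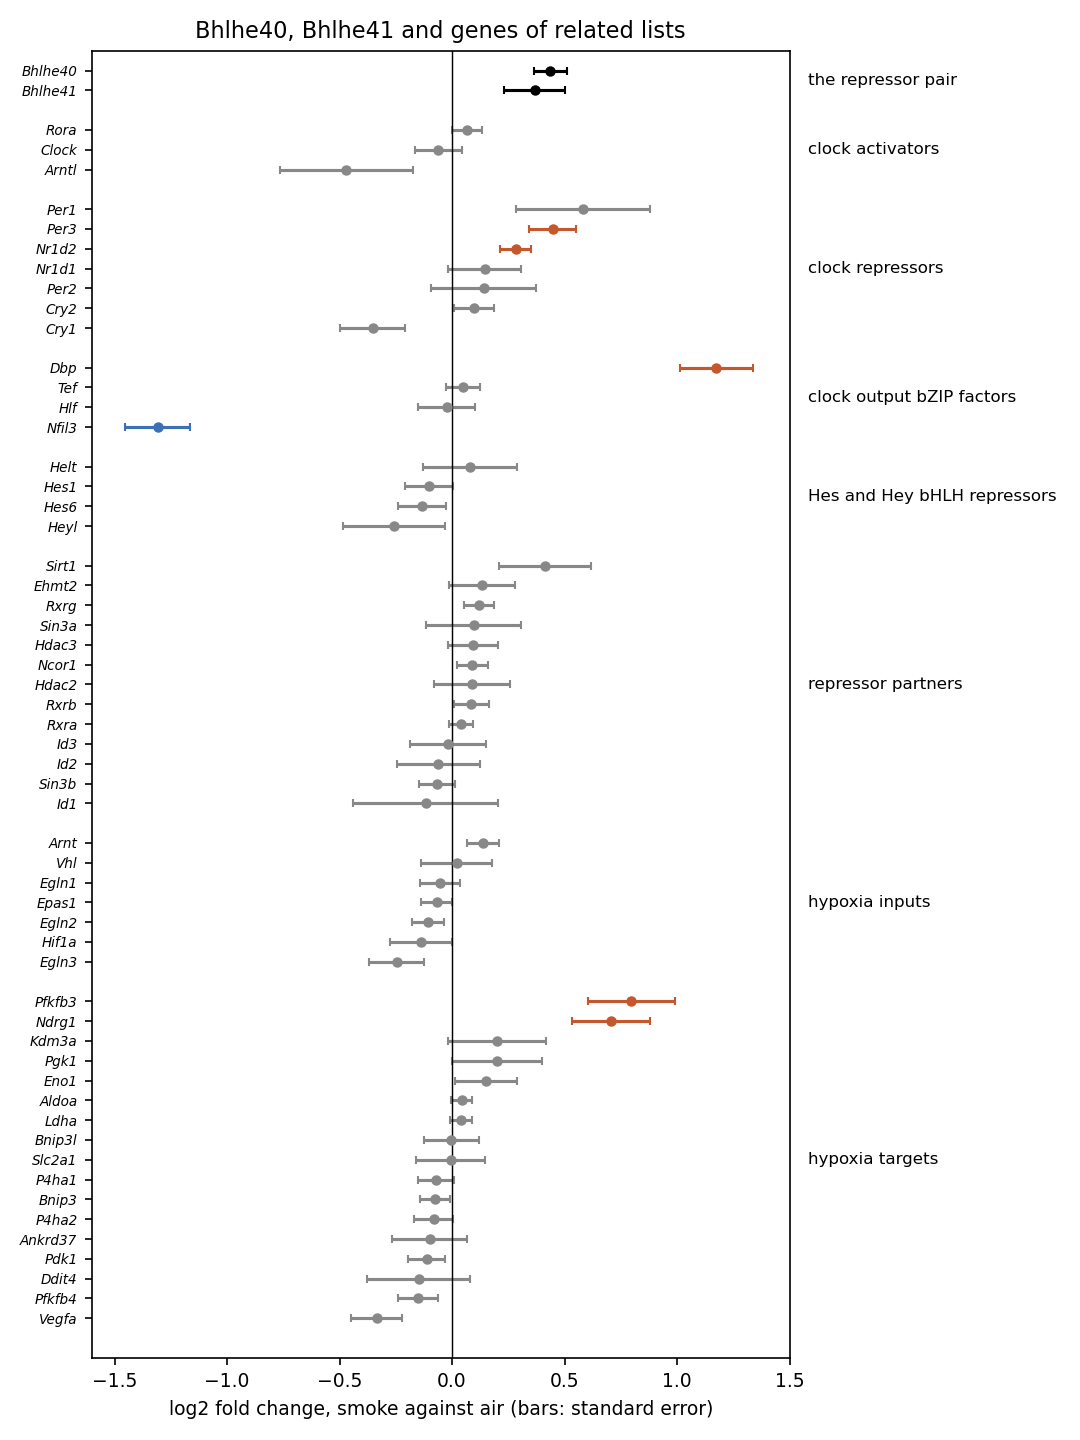
Each point is the log2 fold change of smoke against air with its standard error, for Bhlhe40 and Bhlhe41 (black) and genes of 7 related lists, with genes called higher in orange, called lower in blue and not called in grey. Dbp at 1.18 and Nfil3 at -1.31 lie farthest from 0, and the pair lies near Per3 at 0.45.

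RNA of genes of several inputs known to induce Bhlhe40 was examined through lists of their own. Whether these inputs, TGF-beta among them, were active was not tested. Of 7 oxygen-sensing genes, all were tested and none was called, with a median log2 fold change of -0.07. Hif1a, the hypoxia-inducible factor, stood at -0.14 (edgeR adjusted p = 0.693), and the oxygen sensors Egln1 and Egln2 at -0.05 (adjusted p = 0.838) and -0.11 (adjusted p = 0.505). Of 19 hypoxia targets, the class to which Bhlhe40 belongs, 17 were tested, 2 were called higher and 0 lower, with a median of -0.01. Pfkfb3, a glycolytic regulator, rose from 159 ± 75.4 to 276 ± 92.5 CPM (log2 fold change 0.80, SE 0.19, adjusted p = 0.0216). Ndrg1, a stress-response gene, rose from 25.6 ± 4.36 to 42.1 ± 19.6 CPM (log2 fold change 0.71, SE 0.17, adjusted p = 0.0229). Its adjusted p was 0.0634 with limma voom. The glycolytic enzymes Aldoa and Ldha both stood at 0.04 (adjusted p = 0.715 and 0.746), and Vegfa at -0.34 (adjusted p = 0.118). Pfkfb3 overlaps Gm37975 on its own strand, and Ndrg1 overlaps Gm17035 and Gm2895 on the other.

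TGF-beta genes, another input of Bhlhe40, had 10 of 12 tested and 0 called, with a median of 0.03. Smad3 and Smad4, which carry the signal to the nucleus, stood at -0.00 (edgeR adjusted p = 0.991) and 0.02 (adjusted p = 0.920). The sign of Smad3 changed with the processing, and that of Smad4 only when air 11 alone was left out. Glucocorticoid response genes, 13 of 13 tested, also had 0 called, with a median of 0.08. Klf9 stood at 0.17 (adjusted p = 0.263) and Tsc22d3 at -0.14 (adjusted p = 0.421). Per1, which belongs to this list as well, was called when air 5 was left out, with a log2 fold change of 0.99 and an adjusted p of 0.0418. The AhR axis, named in the series title, had 4 of 9 tested, 0 called higher and 1 lower, with a median of 0.17. The other listed genes, Ahrr, Aldh3a1, Cyp1a1, Cyp1a2 and Cyp1b1, did not pass the expression filter, so nothing is read about them. Nqo1, a detoxifying enzyme, fell from 18.1 ± 3.36 to 13.3 ± 1.73 CPM (log2 fold change -0.44, SE 0.10, adjusted p = 0.0140). Tiparp, an AhR target, stood at 0.48 (adjusted p = 0.114) and Arnt, the partner of AhR and of HIF1α, at 0.14 (adjusted p = 0.346).

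Muscle genes that Bhlhe40 or Bhlhe41 proteins are reported to repress or bind had 11 of 12 tested and 0 called, with a median log2 fold change of -0.08. Ppargc1a, which encodes PGC-1α, averaged 60.4 ± 12.1 CPM without smoke and 52.1 ± 7.66 CPM with it (log2 fold change -0.21, edgeR adjusted p = 0.222). Myod1, the myogenic factor MyoD, stood at -0.37 (adjusted p = 0.190), and the myocyte enhancer factors Mef2c and Mef2d at -0.06 (adjusted p = 0.727) and -0.08 (adjusted p = 0.548).

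Within groups, where the contrast that chose the genes plays no part, 0 of 78 relations of Bhlhe40 and Bhlhe41 with each other and with 19 clock and pathway genes passed an adjusted p of 0.05, by r or by rho. At an unadjusted p under 0.05 there were 8 by r. For Bhlhe40 the largest in air by r was with Pfkfb3 (r -0.63, rho -0.53, n = 11, permutation p = 0.0395 and 0.100, adjusted p = 0.385 and 0.558), and r was -0.58 without the 2 farthest samples. In smoke the largest by r was with Per3 (r 0.67, rho 0.65, n = 13, permutation p = 0.0104 and 0.0183, adjusted p = 0.270 and 0.285), and r was 0.45 without them. By rho the relation with Ppargc1a in smoke was larger (rho -0.73, r -0.62, n = 13, permutation p = 0.00658 and 0.0301, adjusted p = 0.257 and 0.349), and r was -0.59 without the 2 farthest samples. In the other group, the r of Bhlhe40 was -0.54 with Per3 (air), 0.40 with Ppargc1a (air) and 0.37 with Pfkfb3 (smoke). The difference between groups was not tested.

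For Bhlhe41 the largest in air was with Tef, the D-box factor (r -0.77, rho -0.74, n = 11, permutation p = 0.0070 and 0.0127, adjusted p = 0.270 and 0.285), and r was -0.78 without the 2 farthest samples. In smoke it was with Cry1 (r -0.74, rho -0.82, n = 13, permutation p = 0.00401 and 0.00093, adjusted p = 0.270 and 0.0725), and r was -0.72 without them. Leaving out air 3 brought Bhlhe41 with Tef past the threshold, at r -0.90 with a permutation adjusted p of 0.0484 (n = 10). In the other group, the r of Bhlhe41 was 0.23 with Tef (smoke) and -0.58 with Cry1 (air), and the difference between groups was not tested. Both partners carry an E-box printed above, which the relations do not address.

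**Figure D4:**
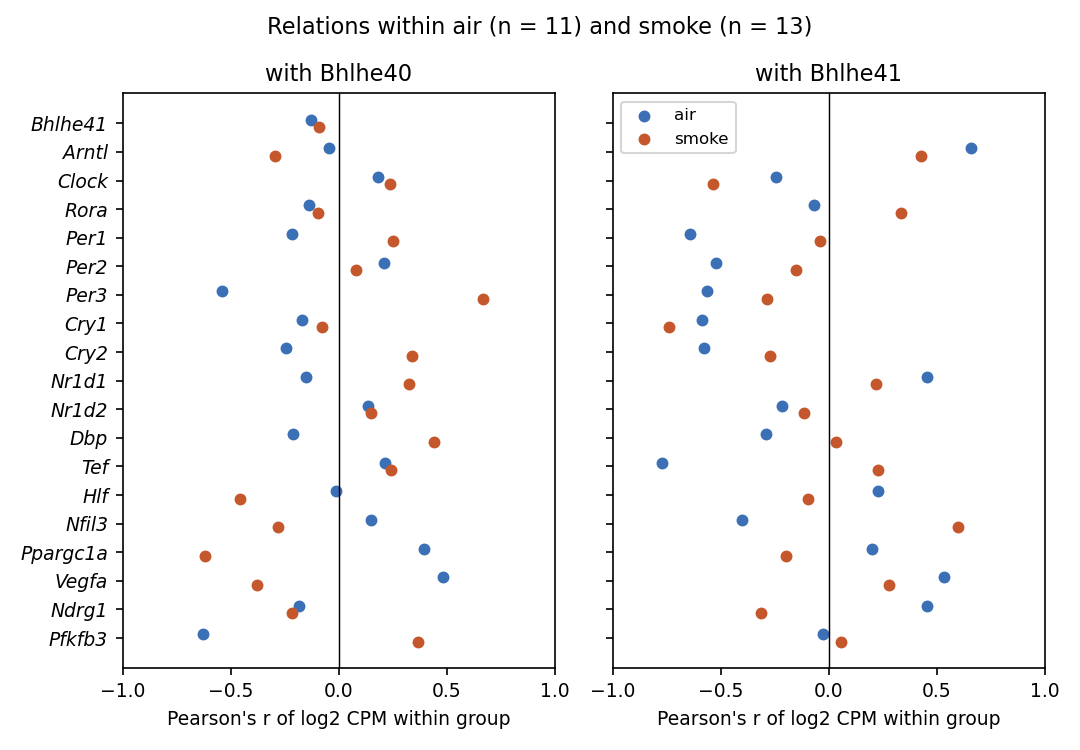
Each point is Pearson's r of log2 CPM within air (blue, n = 11) or smoke (orange, n = 13), between Bhlhe40 (left) or Bhlhe41 (right) and the gene named on the vertical axis. Values run from -0.77 to 0.67, and 0 of 78 relations passed after adjustment.

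The number of other genes that varied with Bhlhe40 or Bhlhe41 from sample to sample was counted. Over 24 samples, after the mean of each group was removed, Bhlhe40 had an r above 0.6 with 26 and below -0.6 with 21 of 10158 genes, and Bhlhe41 with 438 and 119. These are descriptions over samples that share libraries and depth. Without air 11 and smoke 10 the counts were 49 and 123 for Bhlhe40 and 175 and 35 for Bhlhe41, so they rest in part on those libraries.

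The 5 genes most like Bhlhe40 by this r over 24 samples were Pa2g4 (0.74), Ank3 (0.73), Fam126b (0.71), Smpx (0.69) and St13 (0.68). Pa2g4 encodes a growth-regulated RNA-binding protein, Ank3 ankyrin-G and Smpx a small muscle protein. The 5 most opposed were Asxl1 (-0.74), Rnh1 (-0.73), Dnal4 (-0.71), Ipo9 (-0.66) and Myo1e (-0.65). Without air 11 and smoke 10, r was 0.46 for St13 and between 0.60 and 0.74 for the other four, and it was -0.66 to -0.60 for the opposed genes. None of these 10 genes was called between smoke and air.

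The 5 genes most like Bhlhe41 were Tsfm (0.84), Tbx15 (0.83), Lypla1 (0.83), Sbds (0.83) and Ppp1r2 (0.82). Tsfm encodes a mitochondrial translation elongation factor, Tbx15 a T-box factor of fast glycolytic fibres, and Sbds a ribosome maturation factor. The 5 most opposed were Tbc1d17 (-0.82), Pfdn1 (-0.78), Maml3 (-0.76), Bnip2 (-0.74) and Arfgap1 (-0.73). Without air 11 and smoke 10, r was 0.85 with Lypla1, 0.84 with Sbds, 0.77 with Tsfm and Tbx15, and 0.73 with Ppp1r2. For the opposed genes r was then -0.77 with Tbc1d17, -0.66 with Pfdn1, -0.62 with Maml3, -0.61 with Bnip2 and -0.56 with Arfgap1. None of these 10 was called between groups either, and no gene appeared on the lists of both repressors.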

How the data were processed

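For 24 plantaris samples the authors deposited unnormalised read counts, with 1 row for each Ensembl gene. The submitters' processing notes name STAR, DESeq2 and mm9, with no role given; the annotation, read filters and use of strand or of molecular identifiers are not given in the sources used here. Each sample was grouped and numbered by its title. Nothing states that samples came from separate animals, so p-values measure the spread between these samples, which may be technical. Symbols came from GENCODE M21 (47224 of 47643 IDs, 99.1%) and promoters from RefSeq on GRCm38.p6.

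Counts were tested with edgeR 4.0.16 in R 4.3.3 (quasi-likelihood F-test, TMM scaling, filterByExpr with a minimum count of 10, no covariates), with p-values adjusted by Benjamini-Hochberg over 10159 genes and calls at 0.05. CPM values were computed from the deposited counts on TMM-scaled libraries. A biological coefficient of variation of 14.3% was estimated. Relations used log2 CPM (prior count 2) and two-sided permutation tests with 100000 resamples. The procedure was tested on simulated data. Counts of 133 pairs of samples within groups differed beyond sampling noise (chi-square per gene 2.51 to 18.7), so none were merged. Beside the overlaps given with the results, another annotated gene overlaps Aldoa, Arnt, Cry2, Egln2, Klf9, Mef2d, Rora, Smad4, Tef, Tiparp, Pa2g4, Ank3, Fam126b, Asxl1, Ipo9, Tsfm, Tbx15, Lypla1, Ppp1r2, Tbc1d17, Maml3 and Bnip2, whose counts are therefore uncertain.

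The genes and lists were chosen with earlier results of these data known. Named from each list were every called gene and the 2 most abundant not called, plus, for each repressor, the 5 genes most and least like it. Some genes chosen by this rule are not reported here. Arntl, Clock, Cry1, Hif1a, Vegfa, Ppargc1a, Myod1 and the called markers were added after their values were seen. Alternatives were other scaling (RLE, upper quartile, removal of the 10 most abundant genes), other filters, DESeq2 1.42.0, limma 3.58.1 (voom), a replicate block, another prior count and leaving out each sample. Leaving out air 11 and smoke 10 together was added after the data were seen.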

Additional observations from a re-analysis of the deposited data

How the results depend on the processing

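The log2 fold changes of Bhlhe40 and Bhlhe41, which are descriptions, were 0.40 to 0.46 and 0.31 to 0.44 when each sample was left out in turn. The number of called genes was 195, and 329 with DESeq2, which tested more genes (114 higher, 215 lower; 192 shared), 215 without air 11 and smoke 10, and 141 to 254 with one sample left out. Same-numbered air and smoke samples did not deviate together (mean r -0.0059 over 11 pairs, with 2 air samples correlating best with their own number), so the numbers do not pair samples. With the replicate block on 22 samples, 138 genes were called and Bhlhe40 stood at 0.45 and Bhlhe41 at 0.40. Under that block Ndrg1 (adjusted p = 0.0946), Nqo1 (0.0504) and Nr1d2 (0.0911) were not called, and Hlf stood at 0.000199. The list of repressor partners had 0 calls under the block and without an expression filter, against 1. The glucocorticoid list had 1 call without an expression filter, against 0. Leaving out single samples moved Hlf between -0.078 and 0.056, Smad3 between -0.041 and 0.024 and Smad4 between -0.0023 and 0.039. Smad3 stood at 0.0095 with limma voom and at 0.037 without air 11 and smoke 10. The r of Bhlhe40 with Bhlhe41 ran from -0.73 (without air 11) to 0.13 in air, where it turned positive without air 10, and from -0.23 to 0.063 in smoke, where it did so without smoke 1. The number of relations past the threshold was 0 to 1 with one sample left out. The cause of these changes was not tested. Low counts limit what could be seen of genes near 3 counts per sample.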

Other observations

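Genes with the E-box that Bhlhe40 and Bhlhe41 bind were counted across the genome. Of 928 tested genes with CACGTG in a RefSeq promoter window, 6 were called higher (0.647%) and 15 lower (1.62%) under smoke. Of 6777 tested genes whose windows lack it, 46 were called higher (0.679%) and 84 lower (1.24%). The median log2 fold change was 0.00 in both sets, and the difference between them was not tested.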
